A study of Homo sapiens with 12 samples.

Results

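Chemokine ligands and the receptor *CXCR4* were followed in 2 human pancreatic adenocarcinoma lines sorted for the GCTM-5 antigen. The set was chosen by symbol, with earlier results of these data known. It holds 9 ligands (*CXCL1*, *CXCL2*, *CXCL3*, *CXCL5*, *IL8*, *CCL2*, *CCL20*, *CXCL16* and *CX3CL1*) and 1 receptor. All 10 were among the 23346 genes of the expression table. SW1990 and CFPAC-1 are established lines grown as monolayers, and no further treatment or genetic change separated the groups. Each line was stained with the GCTM-5 antibody and sorted into antigen negative and antigen positive cells, with gates that took the strongly positive and the negative cells. The 4 groups were thus SW1990 negative, SW1990 positive, CFPAC-1 negative and CFPAC-1 positive, with 3 replicates in each. The replicates came from triplicate sorts of a line, and whether the sorted cells came from separate cultures is not given in the sources used here, so p-values measure the spread between these samples, which may be technical. Because cell pools were sequenced, fewer cells that make a transcript and less transcript per cell cannot be told apart.

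Chemokines are small secreted or membrane-bound proteins that bind receptors of the G protein-coupled class and set the direction in which cells move. CXCL1, CXCL2, CXCL3, CXCL5, CXCL6 and IL8 (also called CXCL8) carry the ELR letters before their CXC motif and act through CXCR2, and IL8 and CXCL6 also through CXCR1, mainly on neutrophils. CCL2 draws monocytes, and CCL20 draws cells that carry CCR6. CXCL16 and CX3CL1 are made as membrane proteins that metalloproteinases can release. CXCR4 is the receptor for CXCL12, a product of stromal cells. Carcinoma cells of the pancreas are known to make several of these ligands, many of them under control of the transcription factor NF-kappa-B.

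Values were RPKM, which are reads divided by the length of the gene and by the size of the library, so that levels can be compared between genes as well as between samples. Whole reads could be recovered from them, and library totals ranged from 9969697 to 26159330 reads. Both lines expressed the markers of duct epithelium. The summed RPKM of 8 such markers (*KRT7*, *KRT8*, *KRT18*, *KRT19*, *EPCAM*, *CDH1*, *SOX9* and *CLDN4*) was 1708 to 2024 in SW1990 negative cells, 4858 to 5220 in SW1990 positive cells, 6862 to 7828 in CFPAC-1 negative cells and 7467 to 9196 in CFPAC-1 positive cells. Of these, 6 were called higher in SW1990 positive than in negative cells. The summed level of 9 fibroblast markers was 12.8 to 22.7 RPKM in SW1990 negative cells and 3.90 to 4.88 in SW1990 positive cells, with *THY1* at 0 in both, and *LUM* made up most of it (mean 13.2 and 2.43 RPKM). That of 6 endothelial markers was 15.0 to 19.0 and 1.52 to 2.29 RPKM, with *KDR* at 0 in the negative and *TEK* at 0 in the positive cells, and was nearly all *CDH5* (mean 15.6 and 1.33 RPKM), whereas the mean of *CLDN5* was 0.0606 and 0.217 RPKM. That of 9 leukocyte markers was 35.6 to 48.9 and 15.7 to 33.8 RPKM, with *CD3E* and *TYROBP* at 0 in both, and was nearly all *CD68* (mean 42.0 and 21.7 RPKM), while *PTPRC* had at most 2 reads in a sample. These sums moved with the changes described for SW1990 below, and their part in them was not tested.

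The genes of *IL8*, *CXCL6*, *CXCL1*, *CXCL5*, *CXCL3* and *CXCL2* lie in this order within 358.7 kb of chromosome 4 (GRCh37, chr4:74606236-74964913), the last 3 on the minus strand. The promoter windows of RefSeq (250 bases before to 50 after the start, human entries) were compared, because these neighbours did not change alike. All 6 windows held the same 9 letters, GGAATTTCC, which was the longest run shared by the 5 chemokines of the set in this cluster and was singled out after the sequences were seen. On both strands it was found in 162 of 35116 RefSeq windows (0.461%). The stretch from 110 to 51 bases before the start used by RefSeq is shown 5′ to 3′ on the strand of the gene, with the shared letters in capitals, and was located by an exact match to GRCh37. These starts can differ from those of the GENCODE annotation, which gave the span of the cluster. By GENCODE the *IL8* stretch ends at the base before the gene, and that of *CXCL3* lies inside the gene and is not shown.
IL8 (chr4:74606176-74606235, plus strand): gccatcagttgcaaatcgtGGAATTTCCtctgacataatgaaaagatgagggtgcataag
CXCL6 (chr4:74702285-74702344, plus strand): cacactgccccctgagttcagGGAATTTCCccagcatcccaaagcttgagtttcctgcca
CXCL1 (chr4:74735000-74735059, plus strand): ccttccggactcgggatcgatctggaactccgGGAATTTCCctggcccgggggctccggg
CXCL5 (chr4:74864445-74864504, minus strand): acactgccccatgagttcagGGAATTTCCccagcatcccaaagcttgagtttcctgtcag
CXCL2 (chr4:74964963-74965022, minus strand): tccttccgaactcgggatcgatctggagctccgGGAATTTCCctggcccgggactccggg
The shared letters began between 91 and 77 bases before the RefSeq start. The wider kappa-B consensus, of which these letters can be a part, was matched in the windows of *CXCL1*, *CXCL2*, *CXCL3*, *CXCL5*, *CXCL6* and *CCL20* and in 11.3% of all windows, but not in that of *IL8*. The consensus as searched starts with GGG, and in *IL8* a T stands directly before the 9 shared letters. The missing match thus rests on that first letter and does not show that *IL8* lacks a kappa-B site. The AP-1 letters TGANTCA were found in the *IL8* window only among the windows searched for these genes, and in 7.71% of all windows. The TATA letters TATAAA were found in the windows of *IL8* and *CCL20*, in 1 of the 3 windows of *CXCR4* and in 11.5% of all. Genes that carry the same 9 letters therefore included some that fell, some that rose and some that did not pass the test in a given line, as described next. *CCL2*, *CXCL16* and *CX3CL1* were not matched to a window.

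Antigen positive SW1990 cells held less *CXCL1*, *IL8* and *CXCR4* transcript than negative cells, while positive CFPAC-1 cells held more of the same 3. In SW1990, 4 of the 10 genes were called lower and 1 higher in positive cells, where a call is a change over 2-fold at an unadjusted p under 0.01 in limma. Over all 16236 genes tested, 12.1% were called in that comparison, 7.48% lower and 4.59% higher. In CFPAC-1, 4 of the 10 were called higher and none lower, against 9.78% of all genes, 5.65% higher and 4.13% lower. At an unadjusted p under 0.05 alone, 3 were higher and 4 lower in SW1990, the former including *CXCL3* and *CXCL5*, and 5 were higher and 0 lower in CFPAC-1. Limma-voom on recovered reads called 1 higher and 4 lower in SW1990 and 4 higher and 0 lower in CFPAC-1. The difference between the changes of the 2 lines, tested by itself at an adjusted p under 0.05, was called for 6 of the 10 (1 higher and 5 lower in SW1990 than in CFPAC-1) and for 26.9% of all genes (9.16% higher and 17.8% lower). *CCL2* is among the 4 called lower in SW1990 and among these 6. It passed the filter on low values only through SW1990 negative cells, and its call in SW1990 was lost with a pseudocount of 1 in place of 0.1. *CXCL1*, *IL8* and *CXCR4* were the 3 of the set called lower in positive SW1990 and higher in positive CFPAC-1 cells, a pattern of 74 genes (0.456%) overall. None of the set showed the opposite pattern, which 36 genes (0.222%) did. The median log2 fold change of the 10 genes was 0.01 in SW1990 and 0.65 in CFPAC-1, against -0.04 and 0.05 over all genes. Since the set was chosen with earlier results known, its counts beside those of all genes are a description and not a test.

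**Figure D1:**
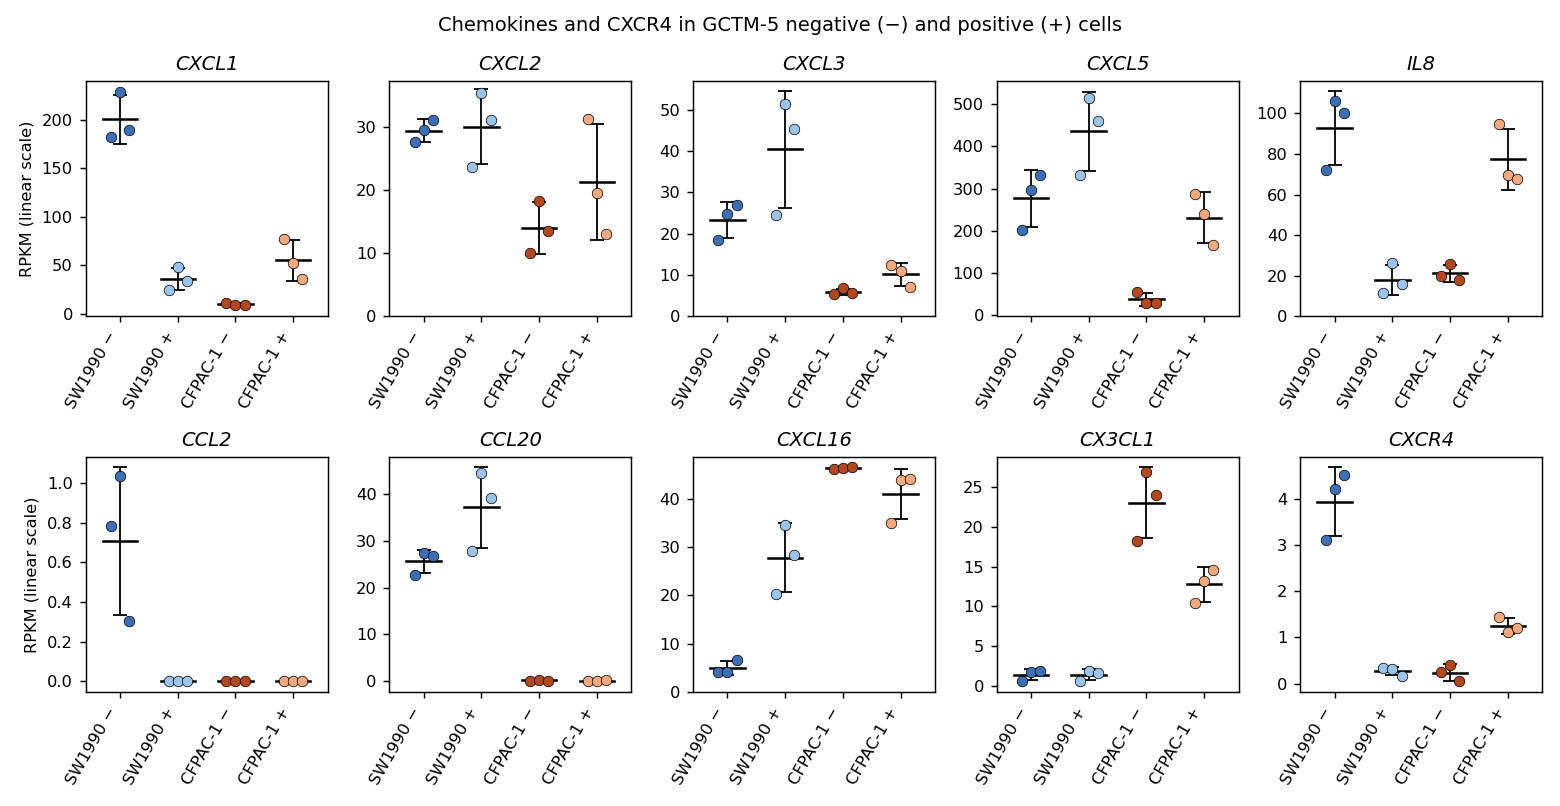
RPKM of each gene on a linear scale (vertical axis, scaled per panel) in GCTM-5 negative (−) and positive (+) cells of SW1990 and CFPAC-1. Points are the 3 replicates of a group and bars their mean and SD. *CXCL1*, *IL8* and *CXCR4* are highest in SW1990 negative cells and lower in SW1990 positive cells, with the reverse order in CFPAC-1.

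*CXCL1*, a ligand of CXCR2, stood at 182, 229 and 189.8 RPKM in SW1990 negative cells and at 24.9, 47.9 and 34.2 in SW1990 positive cells. In CFPAC-1 it stood at 11.4, 9.15 and 9.05 RPKM in negative cells and at 77.4, 51.9 and 35.8 in positive cells. Every SW1990 negative sample was above every other sample, the CFPAC-1 negative samples were the lowest, and the positive samples of both lines overlapped between them. The log2 fold change of positive over negative cells was -2.53 ± 0.27 (SE, adjusted p = 2.14e-05 by limma) in SW1990 and 2.41 ± 0.27 (adjusted p = 7.84e-05) in CFPAC-1. The difference between these changes was -4.94 (95% interval -5.76 to -4.12, adjusted p = 7.85e-06). Between lines, negative SW1990 cells held 20.3 times the mean RPKM of negative CFPAC-1 cells, whereas in positive cells the log2 difference was -0.60 (95% interval -1.19 to -0.02) and was not called.

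*IL8*, the ligand of CXCR1 and CXCR2, was at 71.9, 106 and 100.1 RPKM in SW1990 negative cells and at 11.6, 26.1 and 15.8 in positive cells. CFPAC-1 negative cells had 19.8, 25.9 and 17.8 RPKM, and positive cells had 94.7, 69.9 and 67.8. The 4 groups fell into a high pair, SW1990 negative and CFPAC-1 positive, and a low pair, SW1990 positive and CFPAC-1 negative, which did not overlap with each other, while the groups within each pair did overlap. The log2 fold change was -2.43 ± 0.26 (adjusted p = 2.74e-05) in SW1990 and 1.87 ± 0.26 (adjusted p = 0.000318) in CFPAC-1. The difference between the lines was -4.30 (95% interval -5.11 to -3.49, adjusted p = 1.34e-05). The order of the lines thus depended on the antigen, with *IL8* 4.38 times higher in SW1990 among negative cells and 4.34 times higher in CFPAC-1 among positive cells, both called.

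*CXCL5* is a further CXCR2 ligand, and it had the highest mean of the set in 3 of the 4 groups, with *CXCL16* above it in CFPAC-1 negative cells (46.4 against 36.6 RPKM). It reached 202, 297 and 331 RPKM in SW1990 negative and 332, 515 and 462 in SW1990 positive cells. In CFPAC-1 it was at 53.5, 28.0 and 28.2 RPKM in negative and 286, 240.1 and 165 in positive cells. The SW1990 groups lay side by side without overlap, by under 1 RPKM, and the CFPAC-1 groups lay far apart. The increase in positive CFPAC-1 cells was called (log2 fold change 2.69 ± 0.29, adjusted p = 6.67e-05), whereas in SW1990 the log2 fold change of 0.66 (95% interval 0.03 to 1.29, adjusted p = 0.112) was not. The changes differed between lines by -2.02 (adjusted p = 0.00339). *CXCL5* thus differed from its neighbour *CXCL1* in SW1990 although both were higher in positive CFPAC-1 cells.

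*CXCL3*, also a CXCR2 ligand, was at 18.5, 24.7 and 26.9 RPKM in SW1990 negative cells and at 24.5, 51.4 and 45.4 in positive cells. It was at 5.39, 6.78 and 5.53 RPKM in CFPAC-1 negative cells and at 12.3, 11.0 and 7.05 in positive cells. The groups overlapped in SW1990 and did not in CFPAC-1, and every SW1990 sample was above every CFPAC-1 sample. Its log2 fold change was 0.74 in each line and was called in neither (adjusted p = 0.0642 in SW1990 and 0.0519 in CFPAC-1). Without replicate 1 of SW1990 positive cells the change in SW1990 was 1.06 and was called. The difference between the lines was 0.00 with a 95% interval of -0.84 to 0.84.

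*CXCL2*, the remaining CXCR2 ligand of the set, stood at 27.6, 29.5 and 31.1 RPKM in SW1990 negative and 23.7, 35.4 and 31.1 in SW1990 positive cells. CFPAC-1 negative cells had 10.0, 18.3 and 13.5 RPKM, and positive cells had 31.2, 19.5 and 13.0. The antigen groups overlapped in both lines. In SW1990 the log2 fold change was 0.01 with a 95% interval of -0.61 to 0.63. In CFPAC-1 it was 0.55 with an interval of -0.06 to 1.17, and neither was called. In 100-base windows, 79 windows of *CXCL2* (5.34% of its own) were identical to windows of *CXCL3*, so reads from there may not be assigned to 1 of these genes with certainty. *CXCL1*, *CXCL5* and *IL8* shared no such window with another gene of the cluster.

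**Figure D2:**
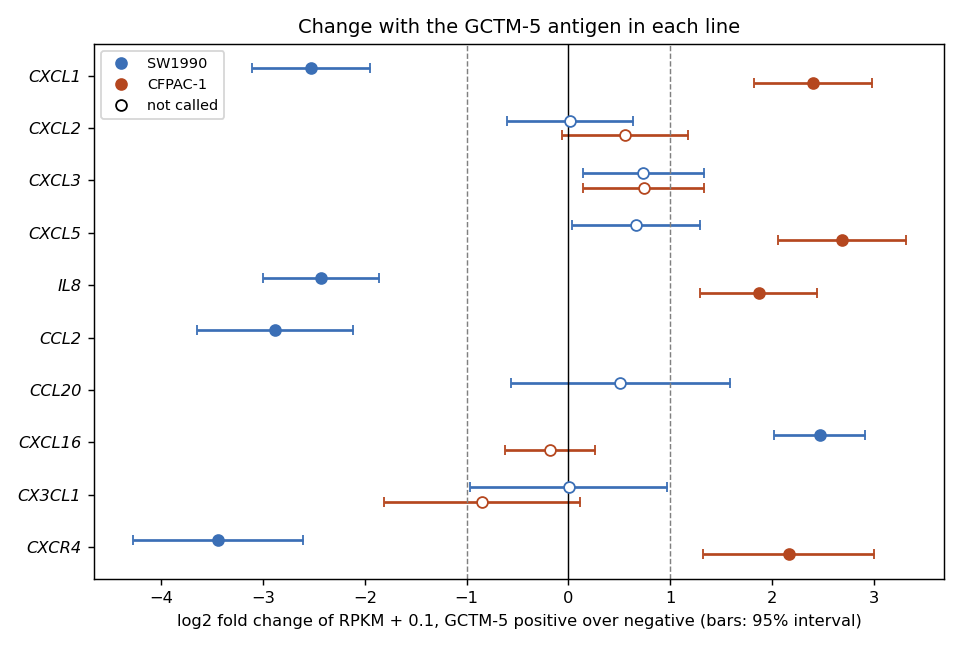
Log2 fold change of RPKM + 0.1 in GCTM-5 positive over negative cells (horizontal axis) of each gene in SW1990 (blue) and CFPAC-1 (red), with 95% intervals. Filled points were called, open points were not, and dashed lines mark 2-fold. *CXCL1*, *IL8* and *CXCR4* lie on opposite sides in the 2 lines. Values of *CCL2* and *CCL20* in CFPAC-1 are left out since at least one of the groups held no more than 3 reads in any sample.

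Within SW1990 the make-up of the 5 CXC ligands of the cluster differed between the antigen groups, while their sums overlapped. Their summed RPKM was 622.7 ± 104.5 (SD, n = 3) in SW1990 negative and 560.0 ± 131.6 in SW1990 positive cells, against 87.5 ± 13.0 and 394.4 ± 106.4 in CFPAC-1. *CXCL1* made up 28.0% to 36.3% of the sum in SW1990 negative cells and 5.81% to 7.09% in positive cells. *CXCL5* made up 40.2% to 48.8% and 76.2% to 79.7% in the same groups. These ranges did not overlap. An exact permutation test of 3 against 3 samples cannot go below 0.1, so the shares are given as a description.

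Ratios within a sample showed which of the 5 moved together. The ratio of *CXCL5* to *CXCL1* averaged 1.38 in SW1990 negative and 12.5 in SW1990 positive cells, against 3.63 and 4.32 in CFPAC-1 negative and positive cells. By contrast, the ratio of *CXCL1* to *IL8* averaged 2.20 and 2.05 in SW1990 and 0.479 and 0.696 in CFPAC-1. The ranges of this ratio overlapped between the antigen groups of each line (1.90 to 2.54 and 1.83 to 2.17 in SW1990, 0.354 to 0.575 and 0.528 to 0.817 in CFPAC-1) and lay apart between the lines. The ratio of *CXCL1* to *CXCL2* averaged 6.82 and 1.17 in SW1990 and 0.768 and 2.63 in CFPAC-1.

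**Figure D3:**
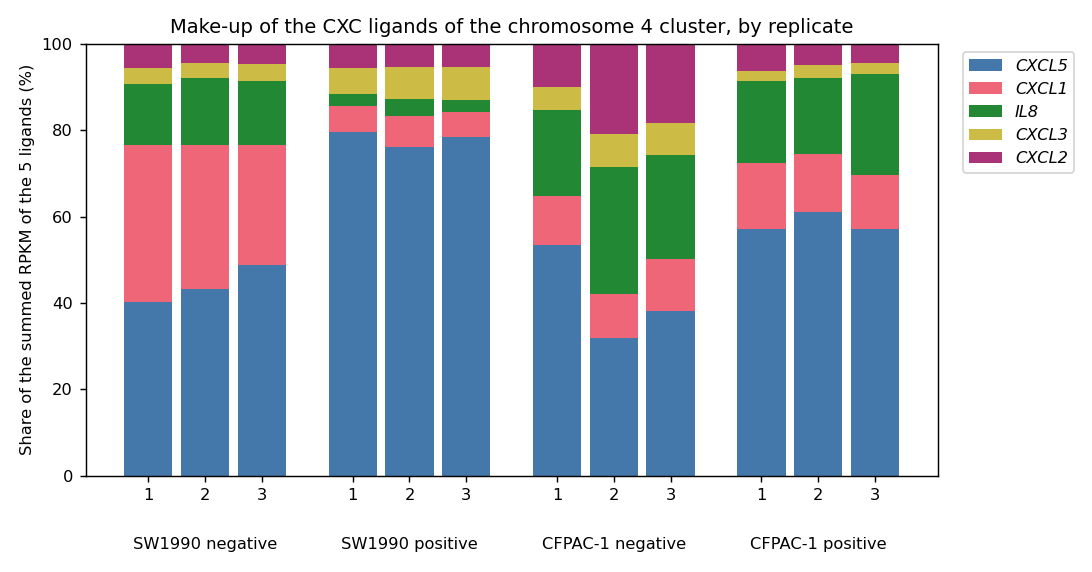
Share in percent of the summed RPKM of 5 CXC ligands (vertical axis) taken by each, in every replicate of the 4 groups. *CXCL1* takes 28.0% to 36.3% in SW1990 negative cells and 5.81% to 7.09% in SW1990 positive cells, where *CXCL5* takes over 76.2%.

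In SW1990 the replicates of a group also differed in a common manner over these ligands, which was less so in CFPAC-1. Of the 8 ligands other than *CCL2*, replicate 1 was the lowest sample for 7 in SW1990 negative and for 8 in SW1990 positive cells, where replicate 2 was the highest for 8. In CFPAC-1 negative cells the extremes were split, with replicate 1 the lowest for 5 but the highest for 2. In CFPAC-1 positive cells, replicate 1 was the highest and replicate 3 the lowest for the 5 CXC ligands of the cluster. There replicate 3 was the highest for the other 3 (*CCL20*, *CXCL16* and *CX3CL1*). The library totals of replicates 1 and 3 of CFPAC-1 positive cells were 26159330 and 9969697 reads, the largest and the smallest of the 12. The part of depth in the order of the samples was not tested.

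Among the CC ligands, *CCL2* was at 0.782, 1.03 and 0.303 RPKM (12, 18 and 4 reads) in SW1990 negative cells and at 0 reads in each of the other 9 samples. By the mean of SW1990 negative cells, it was at least 3.16-fold lower in positive than in negative SW1990 cells. It was likewise at least 3.58-fold higher in negative SW1990 than in negative CFPAC-1 cells, with the floor set at 3 reads in each library. The sample with 4 reads lay close to that floor. Both calls were lost with a pseudocount of 1 in place of 0.1 (log2 fold change -0.75 and 0.75), and *CCL2* passed the filter on low values only through the group in which it was found. *CCL20*, the ligand of CCR6, marked the line. It was at 22.8, 27.4 and 26.7 RPKM in SW1990 negative and 27.7, 44.5 and 39.1 in SW1990 positive cells, against 0 to 6 reads in a CFPAC-1 sample. Its log2 fold change in SW1990 was 0.51 (95% interval -0.56 to 1.58) and was not called. Its mean was 173 times higher in SW1990 than in CFPAC-1 among negative cells and at least 163-fold higher among positive cells.

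*CXCL16*, a transmembrane chemokine that is also a scavenger receptor, ran the other way in SW1990. It was at 4.22, 4.03 and 6.60 RPKM in negative and 20.4, 34.7 and 28.4 in positive cells. In CFPAC-1 it was at 46.2, 46.5 and 46.6 RPKM in negative and 35.1, 44.1 and 44.2 in positive cells. No groups overlapped, and SW1990 negative cells stood below the other 3 groups. The log2 fold change was 2.47 ± 0.20 (adjusted p = 3.46e-06) in SW1990 and -0.18 (95% interval -0.63 to 0.26) in CFPAC-1. The difference between the lines was 2.65 (95% interval 2.02 to 3.28, adjusted p = 6.71e-05), and *CXCL16* was the 1 gene of the set whose change was called higher in SW1990 than in CFPAC-1.

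*CX3CL1*, the membrane-bound ligand of CX3CR1, was at 0.565, 1.75 and 1.81 RPKM in SW1990 negative and 0.567, 1.91 and 1.66 in SW1990 positive cells. In CFPAC-1 it was at 18.3, 27.0 and 24.0 RPKM in negative and 10.4, 13.3 and 14.6 in positive cells. The CFPAC-1 groups did not overlap, yet the log2 fold change of -0.85 (95% interval -1.81 to 0.12, adjusted p = 0.156) was not called. The value in SW1990 was 0.00 (-0.96 to 0.96). *CX3CL1* was called lower in SW1990 than in CFPAC-1 in negative cells (log2 difference -4.11) and in positive cells (-3.26). Both genes of the enzymes that release CXCL16 and CX3CL1 from the membrane were expressed, with *ADAM10* at 21.2 ± 2.01 RPKM (SD, n = 3) in SW1990 negative and 29.9 ± 0.807 in SW1990 positive cells, and neither *ADAM10* nor *ADAM17* was called in either line by limma or limma-voom. At an unadjusted p under 0.05, the positive cells of SW1990 held more *ADAM10* and those of CFPAC-1 held less, and the difference between these changes was called (0.74, adjusted p = 0.00154).

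*CXCR4*, the receptor of the set, was expressed at low levels. It was at 3.11, 4.20 and 4.51 RPKM in SW1990 negative cells (128 to 196 reads) and at 0.334, 0.323 and 0.169 in SW1990 positive cells (6 to 13 reads). In CFPAC-1 it was at 0.256, 0.411 and 0.050 RPKM in negative cells (2 to 18 reads) and at 1.45, 1.12 and 1.20 in positive cells (24 to 76 reads). SW1990 negative cells were the highest and CFPAC-1 positive cells next, and the other 2 groups overlapped. The log2 fold change was -3.44 ± 0.39 (adjusted p = 3.56e-05) in SW1990 and 2.16 ± 0.39 (adjusted p = 0.00128) in CFPAC-1, and the difference between the lines was -5.61 (95% interval -6.79 to -4.42, adjusted p = 3.04e-05). The call in CFPAC-1 was lost with a pseudocount of 1, where the log2 fold change was 0.87.

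Between the lines, all 10 genes were called in antigen negative cells, 8 higher in SW1990 and 2 (*CXCL16* and *CX3CL1*) higher in CFPAC-1, against 36.9% of all genes (21.9% higher in SW1990 and 15.0% higher in CFPAC-1). In positive cells 5 were called, 2 higher in SW1990 (*CCL20* and *CXCL3*) and 3 higher in CFPAC-1 (*IL8*, *CXCR4* and *CX3CL1*), against 28.5% of all genes (14.8% and 13.7%). These comparisons share samples with those above. *CXCL3* kept a log2 difference of 1.96 between the lines in both negative and positive cells. The call of *CXCL2* in negative cells, at 1.11, was lost with samples centred on their medians (0.92), with quantile normalization (0.98) and without replicate 1 of CFPAC-1 negative cells (0.90). The log2 difference of *CXCL5* in positive cells was 0.93 and was not called, but it was called without replicate 1 of SW1990 positive (1.12) or of CFPAC-1 positive cells (1.11). The call of *CXCR4* in positive cells, at -1.88, was lost with a pseudocount of 1 (-0.82). So was that of *CCL2* in negative cells (0.75). Line and any batch of culture or sorting that went with it cannot be told apart.

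Of 35 other chemokine ligands, 12 passed the filter on low values and 14 had no read in any sample. In SW1990 positive cells 2 were called higher and 3 lower, and in CFPAC-1 positive cells 3 were called higher and none lower. *CXCL6*, the neighbour of *IL8* and *CXCL1*, changed in opposite directions as they did. It was at 15.1, 19.2 and 17.5 RPKM in SW1990 negative and 0.870, 1.74 and 1.23 in SW1990 positive cells, and at 6.47, 4.33 and 3.51 in CFPAC-1 negative and 23.8, 18.5 and 10.0 in CFPAC-1 positive cells. Its log2 fold change was -3.70 ± 0.32 (adjusted p = 5.01e-06) in SW1990 and 1.81 ± 0.32 (adjusted p = 0.00126) in CFPAC-1.

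*CCL28*, a chemokine of mucosal epithelia, was the ligand called higher in positive cells of both lines. It was at 1.43, 2.05 and 2.22 RPKM in SW1990 negative and 6.89, 13.9 and 13.4 in SW1990 positive cells, with a log2 fold change of 2.48. It was at 2.33, 1.06 and 1.60 RPKM in CFPAC-1 negative and 23.3, 16.9 and 20.4 in CFPAC-1 positive cells, with a log2 fold change of 3.58. No negative sample reached a positive one. *CCL22*, a ligand of CCR4, was at 0.0589 to 0.233 RPKM in SW1990 negative and 1.38 to 3.84 in SW1990 positive cells (log2 fold change 3.53). *CXCL10*, an interferon-induced ligand of CXCR3, was at 1.54 ± 0.413 and 0.393 ± 0.0908 RPKM (SD, n = 3) in the same groups (called lower). *CXCL14* was the third gene called higher in positive CFPAC-1 cells, with 3 to 11 reads in a sample against at most 2, and its mean was at least 2.67-fold higher. It passed the filter on low values only through that group, as did *CXCL12*, described next, through SW1990 negative cells.

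*CXCL12*, the ligand of CXCR4, was highest in the same group as its receptor, SW1990 negative cells. It was at 7.19, 8.79 and 8.55 RPKM there and at 0.0975, 0.268 and 0.150 in SW1990 positive cells, with a log2 fold change of -4.97 ± 0.26 (adjusted p = 1.58e-07). CFPAC-1 samples held at most 2 reads of it, and negative SW1990 cells were at least 293-fold higher than negative CFPAC-1 cells. In CFPAC-1 positive cells, where *CXCR4* was higher, *CXCL12* had 0 reads in all 3 samples. *CXCR7*, the second receptor of CXCL12, was at 1.78, 1.72 and 1.75 RPKM in SW1990 negative and 0.687, 1.01 and 1.18 in SW1990 positive cells, which was not called, and had at most 6 reads in a CFPAC-1 sample. *DPP4*, a surface peptidase that clips CXCL12, was at 3.64, 4.95 and 4.26 RPKM in SW1990 negative and 0.357, 0.574 and 0.347 in SW1990 positive cells. It was at 2.21, 1.68 and 2.15 RPKM in CFPAC-1 negative and 4.26, 5.03 and 4.60 in CFPAC-1 positive cells, and was called lower in the first line (-3.08) and higher in the second (1.17). *DPP4* thus had the same order of groups within each line as *CXCR4*.

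**Figure D4:**
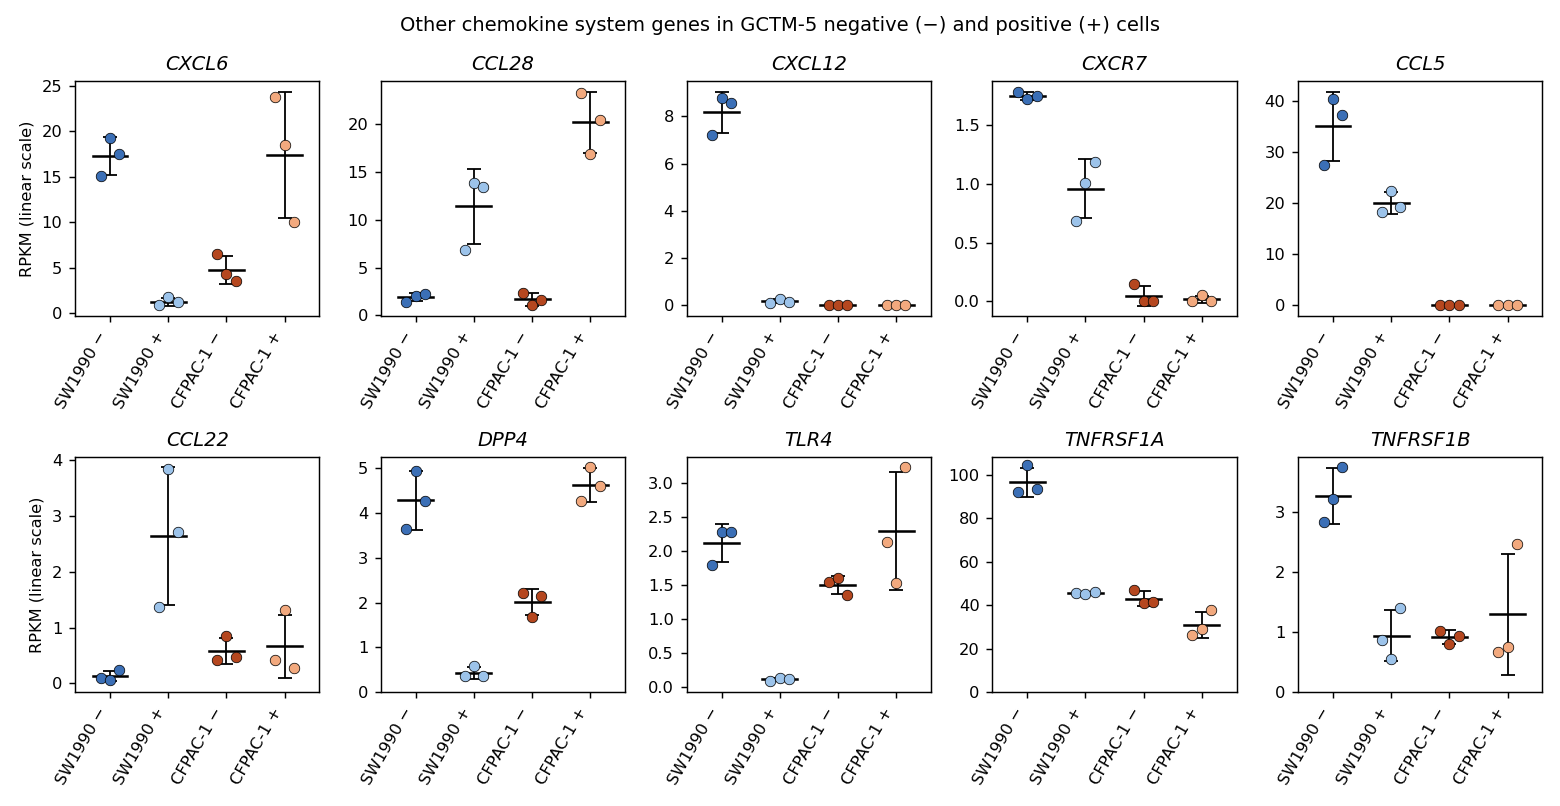
RPKM on a linear scale (vertical axis, scaled per panel) of further ligands, receptors and regulators of the chemokine system in the 4 groups, with the 3 replicates as points and the mean and SD as bars. *CXCL6* and *DPP4* fall in positive SW1990 and rise in positive CFPAC-1 cells, *CCL28* is higher in positive cells of both lines, and *CXCL12* is seen mainly in SW1990 negative cells.

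Of 22 other chemokine receptors, 8 passed the filter on low values. None was called in SW1990 by limma or limma-voom (3 had an unadjusted p under 0.05), and in CFPAC-1 *CXCR5* was called lower in positive cells (log2 fold change -1.01). *CCL5*, a chemokine that draws T cells and monocytes, was called between lines, as *CCL20* was. It was at 27.4, 40.3 and 37.3 RPKM in SW1990 negative and 18.3, 22.4 and 19.3 in SW1990 positive cells, with at most 4 reads in a CFPAC-1 sample. *CCL5* thus passed the filter on low values only through SW1990. The SW1990 groups did not overlap, with a log2 fold change of -0.79 (adjusted p = 0.0433 by limma) that was not called. Of 16 genes of CXCR4 signalling and turnover, 3 were called lower in positive SW1990 cells, namely *DPP4*, *ARRB1* (an arrestin, log2 fold change -1.74) and *GNAI1* (an inhibitory G protein subunit, -1.20). In CFPAC-1, *DPP4* and *RGS16* (a regulator of G protein signalling, 1.67) were called higher, and limma-voom also called *PIK3CG* lower. *RGS16* had few reads, 2 to 6 in a CFPAC-1 negative and 7 to 28 in a CFPAC-1 positive sample. *ARRB1* was lower in positive CFPAC-1 cells too, by just under 2-fold (-0.90, not called).

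Of 17 receptors and adaptors that induce chemokines, 3 were called lower in positive SW1990 cells. *TLR4*, the receptor for lipopolysaccharide, was at 1.80, 2.27 and 2.28 RPKM in SW1990 negative and 0.0892, 0.143 and 0.117 in SW1990 positive cells (log2 fold change -3.36). *TNFRSF1A*, the main receptor of TNF, was at 92.2, 104.5 and 93.6 RPKM and at 45.8, 45.2 and 46.3 (-1.08), and *TNFRSF1B*, the second TNF receptor, was called lower as well (-1.77). In CFPAC-1 only *TLR2* of this list was called, at 1.28 higher in positive cells. *TNFRSF1A* was lower in positive cells there too, but by less than 2-fold (-0.49, not called). Its CFPAC-1 values were 47.0, 40.9 and 41.4 RPKM in negative and 26.3, 29.0 and 37.8 in positive cells. The difference between its changes in the 2 lines was called (-0.59, adjusted p = 0.0226 by limma). At an unadjusted p under 0.05 there were 7 of the 17 in SW1990 and 5 in CFPAC-1. Over the whole list the median log2 fold change was -0.04 in SW1990 and -0.07 in CFPAC-1.

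None of 9 NF-kappa-B subunits and kinases was called in either line, with median log2 fold changes of -0.09 in SW1990 and -0.17 in CFPAC-1. Limma-voom called 0 as well, and at an unadjusted p under 0.05 there were 2 in SW1990 and 6 in CFPAC-1. *RELA*, the main activating subunit, was at 43.8 ± 2.65 and 36.9 ± 1.23 RPKM (SD, n = 3) in SW1990 negative and positive cells and at 47.9 ± 1.98 and 42.6 ± 3.56 in CFPAC-1. Of 14 NF-kappa-B inhibitors and inducible targets, *SOD2* (-1.25), *TRAF1* (-1.22) and *BCL3* (-1.08) were called lower in positive SW1990 cells and none in CFPAC-1, where 7 had an unadjusted p under 0.05 and limma-voom called 0. Of 7 regulators of AU-rich mRNA decay, which control the stability of many chemokine transcripts, 0 were called in either line by both methods. At an unadjusted p under 0.05 there were 4 of them in SW1990 and 7 in CFPAC-1. The difference between the lines was called higher for 1 (*ZFP36*) and lower for 3 (*ELAVL1*, *HNRNPD* and *KHSRP*), against 26.9% of all genes. Of 9 immediate early genes, 0 were called in SW1990 by both methods (2 at an unadjusted p under 0.05), and *DUSP1* (-1.15) and *ATF3* (-1.06) were called lower in positive CFPAC-1 cells. In CFPAC-1, 6 of them had an unadjusted p under 0.05. By the test of the difference between the lines, *NFKB2* was called higher, *BCL3* lower and 0 immediate early genes either way. These are transcript levels, and the activity of the proteins was not measured.

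**Figure D5:**
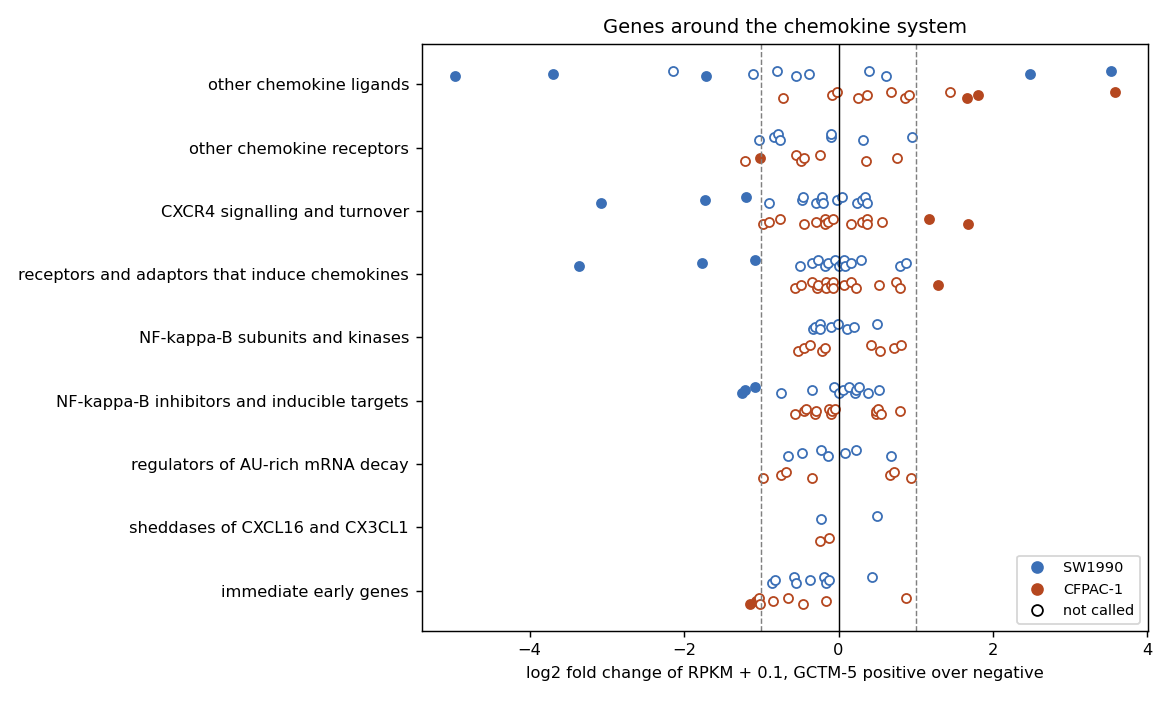
Log2 fold change of RPKM + 0.1 in GCTM-5 positive over negative cells (horizontal axis) of the tested genes of 9 lists, in SW1990 (blue) and CFPAC-1 (red). Filled points were called and dashed lines mark 2-fold. The other chemokine ligands spread the widest, from *CXCL12* at -4.97 to *CCL22* at 3.53 in SW1990. Of 9 NF-kappa-B subunits and kinases, 0 were called in either line, near the share of all genes (12.1% in SW1990 and 9.78% in CFPAC-1).

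Among the 13267 genes whose mean RPKM was 1 or more, those with the most similar course over the 12 samples were found from the mean absolute difference of centred log2 values, as a description. *PAPPA*, a secreted metalloproteinase, was the nearest gene to *IL8* (mean difference 0.295) and also to *CXCR4* (0.521). Its mean was 2.15 and 0.393 RPKM in SW1990 negative and positive cells and 0.390 and 1.65 in CFPAC-1. *ARHGAP24* was nearest to *CXCL1* (0.382) and *AIF1L* to *CXCL5* (0.365). The closest match of any of the 10 was that of *CXCL16* with *PTAFR* (0.141), the receptor of platelet-activating factor, followed by the tight junction gene *OCLN* (0.151). *OCLN* had a mean of 0.579 and 4.01 RPKM in SW1990 negative and positive cells and 7.21 and 5.95 in CFPAC-1. *CCL20* had *KISS1* (0.481) and *S100A4* (0.487) as its nearest genes, both far higher in SW1990 than in CFPAC-1.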

How the data were processed

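RNA-seq of 12 sorted samples, 3 in each of 4 groups of line and GCTM-5 staining, was used. The authors aligned reads to hg19 (GRCh37) and deposited RPKM values made with QuasR, scaled by library size and gene length. The annotation, the use of strand and the treatment of reads matching several genes are not given in the sources used here. Whole reads were recovered from the RPKM of 19654 of the 19654 genes above 0, to within 0.01 of a read, and served for depth and for lower bounds at 3 reads in a library. Bounds divide the mean RPKM of the higher group by this floor. They cover counting error in the lower group only, and not the error or spread of the higher group.

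The log2 of RPKM plus 0.1 was fitted with limma 3.58.1 in R 4.3.3 (eBayes with a trend, 4 group means) for the 16236 of 23346 genes whose mean RPKM was 0.1 or more. Fold changes are on this scale and understate changes of low genes. The 5 contrasts were tested 2-sided. Calls needed over 2-fold and unadjusted p under 0.01, and the difference between lines needed a Benjamini-Hochberg adjusted p under 0.05 over all genes. The study used TCC, a count method, which was not used here. Reads of all 12 samples were also simulated, with the mean of each gene over both lines as its level in every group. In SW1990 positive samples, 100 genes were raised and 100 lowered 4-fold. For SW1990, 98% of those raised and 100% of those lowered were called, as were 0.224% of 16036 unchanged genes. The simulation used the same spread between replicates for every gene and changed only genes with a mean RPKM of 1 or more. These rates may not hold for genes with a wider spread, lower levels or levels that differ between the lines. The genes of the set and all lists were chosen with earlier results of these data known. Named genes were the 10, up to 4 called genes of a list with the largest changes in a contrast, and the 3 genes of most similar course. Promoters are RefSeq's, and 7 of the 10 genes had at least 1 window, with 3 for *CXCR4*. Alternatives were pseudocounts of 1 and 0.01, no filter or a minimum of 1 RPKM, median centring, quantile normalization, a replicate block, eBayes without a trend, limma-voom on the recovered reads with library totals, each line alone, an adjusted p, and each sample left out.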

Additional observations from a re-analysis of the deposited data

Results flagged for a closer look

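For 6 of the 10 genes the change with the antigen differed between SW1990 and CFPAC-1 by the test of the difference itself (SW1990 change minus CFPAC-1 change, log2, limma, adjusted p under 0.05). Over all genes, 26.9% were called in this test (9.16% higher and 17.8% lower). The difference was -5.61 for *CXCR4*, -4.94 for *CXCL1*, -4.30 for *IL8*, -2.02 for *CXCL5* and 2.65 for *CXCL16*. For *CCL2* the fitted difference was -2.88, which depends on the pseudocount since only SW1990 negative samples held reads of it. The first 3 were called in opposite directions in the 2 lines, while *CXCL5* was called in CFPAC-1 alone and *CXCL16* in SW1990 alone.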

How the results depend on the processing

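Over 45 fold changes of the 10 genes and 961 values under alternatives, 946 were labelled as unchanged. Of the rest, 7 lost a call, 4 gained one and 4 were labelled as turned in direction. The 4 labelled as turned were of *CXCL2* in SW1990, at 0.01 as reported. It was -0.024 with quantile normalization and ranged from -0.12 to 0.17 with a sample left out. It was -0.033 without replicate 1 of SW1990 negative cells, and -0.116 and -0.022 without replicates 2 and 3 of SW1990 positive cells. The labels did not mark every change of sign near 0. The change of *CX3CL1* in SW1990, at 0.00 as reported, ranged from -0.50 to 0.50. The difference between the lines for *CXCL3*, also at 0.00, ranged from -0.24 to 0.32. With a pseudocount of 1, all genes called fell from 1961 to 1101 in SW1990, from 1588 to 759 in CFPAC-1 and from 4627 to 2965 between lines in positive cells. Genes of the set called higher in SW1990 ranged from 1 to 2 with a sample left out, the second being *CXCL3* without replicate 1 of SW1990 positive cells. With the replicate block, 2 in place of 1 differed upward between lines, the second being *CX3CL1* (0.85, adjusted p = 0.0121), and no other call of the set changed. Whether same-numbered samples of a line came from the same sort is not given in the sources used here. The correlation of their deviations (-0.059 to 0.185) cannot decide it with 3 samples in a group. Centring samples on their medians moved the median difference of all genes from -0.15 to 0.00 for the difference between lines and from 0.19 to 0.01 between lines in negative cells, and the share of calls that were higher from 57.7% to 45.8% in CFPAC-1, from 34% to 50% for the difference (47% with quantile normalization) and from 59.4% to 49.5% in negative cells. The TMM factors planned for limma-voom were not used, since the values are RPKM. Few reads limit *CCL2*, *CXCR4* in its low groups and *CCL20* in CFPAC-1.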
